A study of Mus musculus with 16 samples.

Results

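The genes described are 7 matrix metalloproteinases (Mmp2, Mmp3, Mmp7, Mmp9, Mmp12, Mmp14 and Mmp23) and 3 tissue inhibitors of metalloproteinases (Timp1, Timp2 and Timp3). They were taken by name, as every probe set whose annotated symbol is one of these 10 genes, which gave 23 of the 45037 non-control probe sets of the array. No probe set named a member together with another gene. Signals were measured in whole kidneys of 16 mouse pups aged 7 days, 1 Affymetrix array per pup. The 9 Aqp11-/- pups (5 male, 4 female) lack aquaporin-11, a water channel protein of the endoplasmic reticulum, and the 7 Aqp11+/+ pups (3 male, 4 female) were littermates from 5 heterozygous breeding pairs. All are labelled C57BL/6J, after repeated back-crossing of an allele made on 129/SvEvBrd. The labels name no Cre or transgene, so the loss is taken as present in every cell, and each signal is the sum over all cells of the kidney.

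Matrix metalloproteinases are zinc enzymes that cut collagens, elastin, proteoglycans and cell surface proteins outside the cell. Most are made as inactive proenzymes and opened by other proteases. Mmp14, anchored in the cell membrane, opens the proenzyme of Mmp2 with Timp2 as the bridge between them. Timps block the active site, and the balance of enzyme and inhibitor sets how matrix turns over in a growing or injured kidney. Timp3 is held in the matrix, while the other inhibitors described here diffuse.

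Aqp11 served as the check of the labels. Its brightest probe set gave a log2 signal of 2.94 ± 0.33 (SD, n = 9) in knockout and 7.87 ± 0.16 (SD, n = 7) in wild type, where log2 2.78 is the floor set on low signals. The signal was an estimated 30.3-fold lower (limma, adjusted p = 7.99e-14), which may be too small because 7 of the 9 knockout arrays lay at that floor. Before scaling, the trimmed mean signal of an array was 124 to 236 in knockout and 111 to 211 in wild type. All 7 kidney genes looked up (Umod, Slc12a1, Slc12a3, Aqp2, Nphs1, Lrp2 and Slc34a1) were bright enough to test. A single knockout array, labelled 1-2, was the brightest of all and had the highest macrophage marker signal. In wild type, arrays 2-1 and 2-2 stood apart, with a mean log2 signal of 7.40 each over 18 macrophage genes, against 6.35 to 6.49 on the other wild-type arrays.

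For a probe set to enter the test, 7 or more of the 16 arrays had to read it above their own 40th percentile, and 18 of the 23 member probe sets met this. The other 5, those of Mmp3, Mmp7 and Mmp9 and 1 of the 6 of Timp2, were too dim. Of the 18 tested, 7 were higher and 1 was lower in knockout kidneys at an adjusted p under 0.05, against a background of 6.19% higher and 5.46% lower among all 27399 probe sets tested (11.7% in either direction). By the brightest probe set of each gene, Mmp12, Mmp14, Mmp23 and Timp1 rose, against 8.43% of all genes tested, and no member fell, against 7.29% of all genes tested. The median log2 difference over all genes tested was 0.00. When the first number of the array labels was fitted as a replicate block, 6 member genes were called, Timp3 among them as lower. Member probe sets called were then 13, against 2029 higher and 1887 lower among all probe sets.

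**Figure D1:**
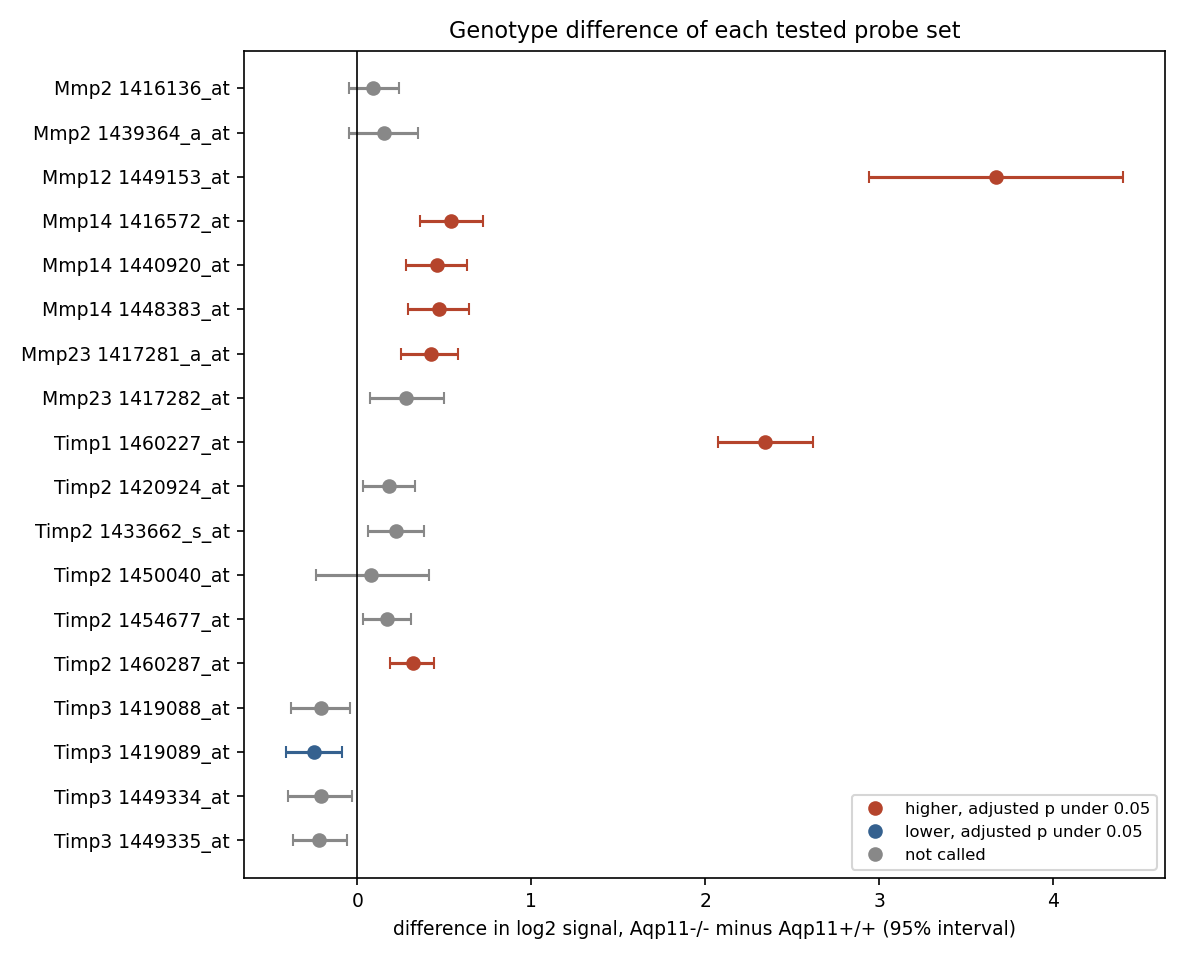
Difference in log2 signal between Aqp11-/- (n = 9) and Aqp11+/+ (n = 7) kidneys for each of the 18 tested probe sets, with 95% intervals from limma. Mmp12 and Timp1 lie far to the right at 3.67 and 2.34, while every other interval lies under 1.

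Mmp12, the macrophage metalloelastase, had the widest difference of the family. Its only probe set read between 5.30 and 8.74 in knockout (median 6.63), against 2.78 to 3.74 in wild type (median 2.78), on the log2 scale. The lowest knockout kidney was well above the highest wild-type kidney, and 4 of the 7 wild-type kidneys lay at the floor. The mean was 6.64 ± 0.99 (SD, n = 9) in knockout and 2.97 ± 0.35 (SD, n = 7) in wild type, a difference of 3.67 (SE 0.35, 95% interval 2.94 to 4.40). This is an estimated rise of 12.8-fold (limma, adjusted p = 3.4e-07), which may be too low because the wild-type signal is bounded by the floor. No wild-type array passed the level required for testing, so this probe set was tested only through the knockout arrays, all 9 of which passed. Setting the floor at the 10th percentile gave a difference of 4.59 and at the 30th 2.91, so its size depends on the floor but its call does not.

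Knockout kidneys varied widely in Mmp12. Array 1-2 was highest at 8.74, followed by 7.14 on array 4-3 and 7.10 on array 5-2, and arrays 2-3 and 3-4 were lowest at 5.30 and 5.66. Without array 1-2 the difference was 3.41. Wild-type array 5-1 was the only one in its group clearly off the floor, at 3.74. The difference was 3.55 in males and 3.90 in females (interaction -0.35, SE 0.71, adjusted p = 0.871 in limma).

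Mmp7, matrilysin, is a small metalloproteinase of epithelial cells known in injured kidney tubules. Its probe set failed the test's filter, so its values are descriptive. It read from 2.78 to 6.17 in knockout (median 5.05) and from 2.78 to 3.78 in wild type (median 2.78). Of the knockout kidneys 7 of 9 were above every wild-type kidney, 1 lay at the floor, and 5 of the 7 wild-type kidneys lay at the floor. Array 1-2 was again the highest. The mean difference was 1.69, and it ran from 1.10 to 2.42 as the floor was moved between the 30th and the 10th percentile. In a fit with no filter on dim probe sets, over 45037 probe sets, Mmp7 reached an adjusted p of 0.0183 (limma). The remaining dim enzymes did not separate the groups. Mmp3, stromelysin-1, averaged 3.66 ± 0.76 in knockout and 3.37 ± 0.75 in wild type. The probe sets of Mmp9, gelatinase B, averaged 3.69 ± 0.80 and 3.10 ± 0.54 in knockout against 3.49 ± 0.57 and 3.02 ± 0.46 in wild type (SD, n = 9 and 7). In the fit with no filter their adjusted p-values lay between 0.767 and 0.918, so no difference was detectable at signals this close to the floor.

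**Figure D2:**
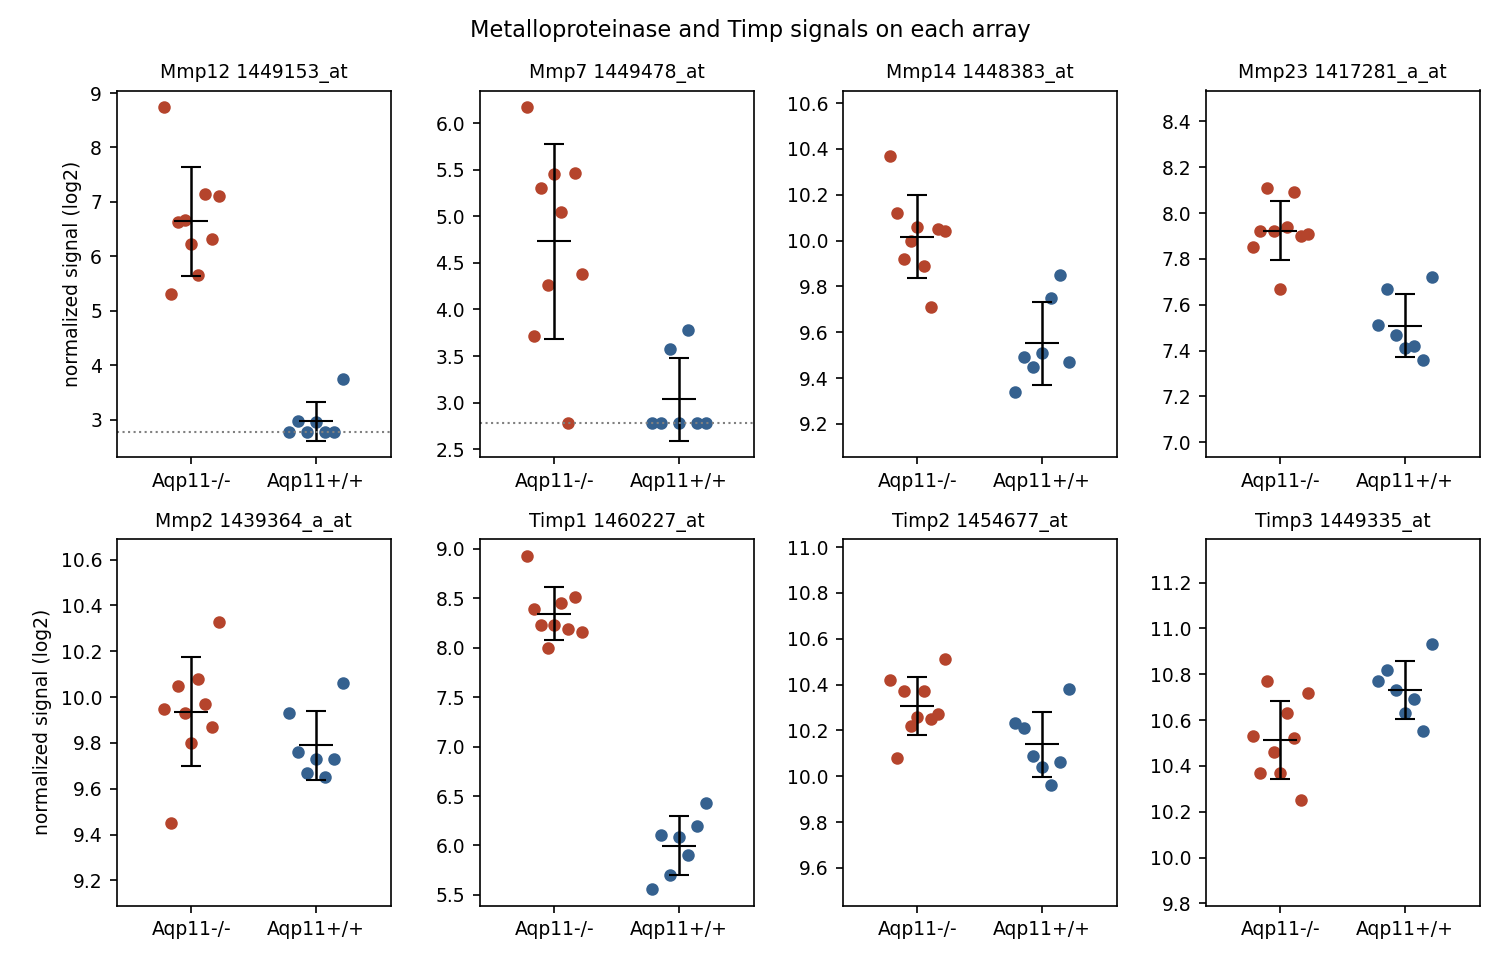
Normalized log2 signal of the brightest probe set of 8 members on each array, Aqp11-/- (red, n = 9) left of Aqp11+/+ (blue, n = 7), with mean and SD. The vertical scale differs between panels, and the dotted line marks the floor of 2.78. The knockout arrays of Mmp12 and Timp1 lie clear of all wild-type arrays, those of Mmp14 and Mmp23 overlap them slightly, and Timp3 runs the other way.

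Mmp14, membrane type 1 metalloproteinase, is a cell surface collagenase. All of its 3 probe sets were higher in knockout. Probe set 1416572_at read from 8.90 to 9.40 in knockout (median 9.02) and from 8.36 to 8.85 in wild type (median 8.53). The groups did not overlap, which was so for 3.75% of all probe sets tested. Its mean was 9.09 ± 0.17 in knockout and 8.54 ± 0.17 in wild type (SD, n = 9 and 7), a difference of 0.54 (SE 0.09, limma adjusted p = 0.000173). Probe set 1440920_at, with a difference of 0.46 (SE 0.08, limma adjusted p = 0.000721), also had groups that did not overlap. In the brightest, 1448383_at, the mean was 10.02 ± 0.18 in knockout and 9.55 ± 0.18 in wild type (SD, n = 9 and 7). That is a 1.38-fold rise (limma adjusted p = 0.00083), and 8 of 9 knockout arrays exceeded the wild-type maximum. Among the 8 dimmer arrays alone the differences of the 3 probe sets were 0.23 to 0.42 and none passed the test.

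Mmp23, a family member that is anchored in the membrane by its amino-terminal part and is shed when cut, rose by 1 of its 2 probe sets. Probe set 1417281_a_at averaged 7.92 ± 0.13 in knockout and 7.51 ± 0.14 in wild type (SD, n = 9 and 7), a difference of 0.42 (SE 0.08) or 1.33-fold (limma adjusted p = 0.000926). It read from 7.67 to 8.11 in knockout and from 7.36 to 7.72 in wild type, so 1 knockout kidney lay within the wild-type range. Probe set 1417282_at had a difference of 0.28 (95% interval 0.07 to 0.50, limma adjusted p = 0.0867), which did not pass. Without wild-type array 5-1, whose value of 7.97 was far from the 7.34 to 7.57 of the other wild-type arrays, that difference was 0.36 and passed (limma adjusted p = 0.0141). That array was the dimmest of all, with a trimmed mean of 111. Leaving it out gave 10 member probe sets higher and 0 lower, against 7 and 1.

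Mmp2, gelatinase A, the main enzyme that Mmp14 activates, did not pass the test in either probe set. Its brighter probe set read from 9.45 to 10.33 in knockout (median 9.95) and from 9.65 to 10.06 in wild type (median 9.73), with broad overlap. Its differences were 0.15 (95% interval -0.05 to 0.35, limma adjusted p = 0.379) and 0.09 (95% interval -0.05 to 0.24, limma adjusted p = 0.448). A change in the Mmp2 transcript of the size seen for Mmp14 therefore lies outside both intervals.

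Timp1, the inducible inhibitor, had the smallest p of any member. It read from 8.0 to 8.93 in knockout (median 8.23), against 5.56 to 6.43 in wild type (median 6.09). The lowest knockout kidney was clearly above the highest wild-type kidney. The mean was 8.34 ± 0.27 in knockout and 6.00 ± 0.30 in wild type (SD, n = 9 and 7), a difference of 2.34 (SE 0.13, 95% interval 2.07 to 2.62). This was a 5.08-fold rise (limma adjusted p = 3.73e-10), with every wild-type array above the floor. It was 2.47 in males and 2.26 in females (interaction 0.20, SE 0.27, limma adjusted p = 0.787). Array 1-2 was again the highest knockout array, and the difference was 2.27 without it.

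Timp2, the bridge in the activation of Mmp2, was higher in 1 of its 5 tested probe sets. Probe set 1460287_at read from 9.80 to 10.21 in knockout (median 9.96) and from 9.57 to 9.68 in wild type (median 9.66). The groups did not overlap, and the wild-type kidneys were unusually even. The difference was 0.32 (SE 0.06) or 1.25-fold (limma adjusted p = 0.000948). The other tested Timp2 probe sets had differences of 0.08 to 0.22 with limma adjusted p from 0.0635 to 0.817. Of these, 1420924_at, 1433662_s_at and 1454677_at passed when the first number of the array labels was fitted as a replicate block. The probe sets therefore differed in call, and all 5 were higher, although 1450040_at was lower (-0.06) without wild-type array 2-1. The sixth Timp2 probe set, 1437081_at, lay at the floor on 8 of 9 knockout and 5 of 7 wild-type arrays.

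Timp3, the matrix-bound inhibitor that also blocks Adam17, ran opposite to Timp1. All of its 4 probe sets were lower in knockout, by 0.21 to 0.25 on the log2 scale, but only 1419089_at passed. That probe set averaged 10.19 ± 0.16 in knockout and 10.45 ± 0.15 in wild type (SD, n = 9 and 7), a difference of -0.25 (95% interval -0.41 to -0.09, limma adjusted p = 0.0385). It read from 9.92 to 10.43 in knockout and from 10.27 to 10.72 in wild type, so the groups overlapped. The call did not survive the removal of any 1 of 9 single arrays (wild-type 1-1, 2-1, 2-2 and 5-1, knockout 2-3, 3-3, 4-3, 4-4 and 5-2), with adjusted p from 0.0578 to 0.102 in limma. With the brightness group of the arrays as a block, all 4 probe sets passed, with differences of -0.25 to -0.23 (limma adjusted p from 0.0362 to 0.0482). With the probe sets of a gene averaged, Timp3 passed (-0.22, limma adjusted p = 0.00909), as did Timp2 (0.19, limma adjusted p = 0.0305).

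Male and female pups were compared in the same way for every probe set. No member passed the test of the genotype by sex interaction, and neither did any other of the 27399 probe sets (0%, limma), although 2786 of them (10.2%) had an unadjusted p under 0.05. The member with the smallest unadjusted interaction p, 0.0623 in limma, was Mmp23 1417282_at, with a difference of 0.48 in males and 0.09 in females.

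Mmp3, Mmp7 and Mmp12 belong to a run of 10 Mmp genes on chromosome 9 that lie next to each other among protein-coding genes. In the order Mmp13, Mmp12, Mmp1b, Mmp3, Mmp1a, Mmp10, Mmp8, Mmp27, Mmp20 and Mmp7, Mmp12 alone was bright enough to test. Mmp27 has no probe set here that names it alone. Of the dim genes, Mmp7 and Mmp13 had the widest differences, 1.69 and 0.69. For Mmp13 this is a mean of 3.74 ± 0.80 in knockout and 3.04 ± 0.23 in wild type (SD, n = 9 and 7). The other 6 measured differed by -0.08 to 0.37. With every measured gene of the run but Mmp12 too dim to test, these values cannot show whether the genes of the run changed together.

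The stretch just before the transcription start of the family's inducible genes is known for AP-1 sites, to which dimers of Fos and Jun proteins bind. RefSeq (GRCm38.p6) gave 250 bases before 11 annotated starts of 8 of the 10 members, none for Mmp2 and Mmp9. The AP-1 letters TGANTCA, which read the same on both strands, occur in 3 of these 11 windows and in 6.75% of all 32851 windows of that length. The 11 windows are not independent, since some genes have more than 1 and the 3 with a match all lie in the chromosome 9 run. The matches are those of Mmp12, Mmp7 and Mmp3, printed here 5′ to 3′ on the plus strand, with the match in capitals, because 2 of these genes are the ones with the widest metalloproteinase differences.
Mmp12: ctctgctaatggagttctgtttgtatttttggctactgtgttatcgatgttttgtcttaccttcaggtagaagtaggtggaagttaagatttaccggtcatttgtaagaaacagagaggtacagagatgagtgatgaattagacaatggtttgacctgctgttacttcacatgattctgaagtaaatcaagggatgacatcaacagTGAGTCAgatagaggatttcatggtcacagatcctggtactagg
Mmp7: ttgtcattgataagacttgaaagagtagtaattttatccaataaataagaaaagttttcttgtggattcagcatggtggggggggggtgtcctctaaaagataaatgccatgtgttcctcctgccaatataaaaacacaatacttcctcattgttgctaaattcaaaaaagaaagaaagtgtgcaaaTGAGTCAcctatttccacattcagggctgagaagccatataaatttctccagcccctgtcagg
Mmp3: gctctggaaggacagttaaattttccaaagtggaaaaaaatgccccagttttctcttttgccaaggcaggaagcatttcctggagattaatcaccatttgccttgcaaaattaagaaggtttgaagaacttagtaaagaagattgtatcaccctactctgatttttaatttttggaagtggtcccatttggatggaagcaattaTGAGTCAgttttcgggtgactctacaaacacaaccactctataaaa
The windows are chr9:7347124-7347373 for Mmp12, chr9:7691840-7692089 for Mmp7 and chr9:7445572-7445821 for Mmp3. The matches begin 44, 63 and 46 bases before the start. Mmp12 and Mmp7 each have a second annotated start whose window holds no match, and Mmp3 holds a match while no difference between its groups was detectable. No window of Mmp14, Mmp23 or Timp1, which also rose by their brightest probe sets, holds a match. The letters AGGAAG or their reverse complement CTTCCT, the PEA3 motif of Ets factors, occur in 7 of the 11 member windows and in 29.5% of all windows. These are matches of letters only and were not tested for binding. The AP-1 subunit genes themselves were higher in 5 of the 6 tested, with a median difference of 0.82. Fosl1 averaged 5.35 ± 0.52 in knockout and 2.97 ± 0.27 in wild type (SD, n = 9 and 7; difference 2.38, limma adjusted p = 9.29e-07). Of the 7 wild-type Fosl1 values 4 lay at the floor and none passed the level required for testing, so this difference depends on the floor. Fos rose by 1.25 and Junb by 1.15, while Jun and Fosl2 rose by 0.49 and 0.40.

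Among the rest of the family, 12 of 17 listed genes (16 further Mmp genes and Timp4) have a probe set on the array that names them alone, and 3 were bright enough to test. Mmp11, Mmp16 and Mmp17 did not pass, with differences of 0.01, -0.33 and 0.12, and the smallest adjusted p was 0.233 for Mmp16 (limma). Mmp19 was too dim for the test, with 4.71 ± 0.51 in knockout and 3.72 ± 0.40 in wild type (SD, n = 9 and 7). Of 19 tested Adam and Adamts proteases, 4 rose and 1 fell, with a median difference of 0.09. Adam8, a sheddase of white blood cells, averaged 5.82 ± 0.37 in knockout and 3.96 ± 0.63 in wild type (SD, n = 9 and 7; difference 1.85, limma adjusted p = 1.94e-05). Adam23, an adhesion protein without protease activity, rose by 1.87 (limma adjusted p = 5.15e-06). Both were tested only through the knockout arrays, since no wild-type array passed the level required. Adam9 rose by 0.17 and Adamts1 by 0.41, and Adamts15 fell by 0.41. Adam17, the enzyme that Timp3 blocks, did not pass (0.09, limma adjusted p = 0.469).

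Of 10 tested activators, receptors and other regulators, 4 rose and 1 fell, with a median difference of 0.29, which was 0.38 in the brighter arrays alone and -0.05 in the dimmer ones. Cd44, the hyaluronan receptor that can hold metalloproteinases at the cell surface, averaged 8.83 ± 0.23 in knockout and 6.89 ± 0.59 in wild type (SD, n = 9 and 7; difference 1.94, limma adjusted p = 3.35e-07). Plaur, the urokinase receptor, rose by 1.12 (limma adjusted p = 3.99e-05). Lrp1, the receptor that clears proteases and their inhibitors, rose by 0.43, and the tetraspanin Tspan8 by 0.32. Reck, a membrane-anchored inhibitor of metalloproteinases, fell by 0.35 (limma adjusted p = 0.0133). Furin, which opens the proenzyme of Mmp14, did not pass (0.47, limma adjusted p = 0.091). Brush border peptidases went the other way, with 4 of 6 lower and a median of -0.41. The meprin subunits Mep1b and Mep1a fell by 0.78 and 0.45, Ace by 0.43 and Anpep by 0.39.

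**Figure D3:**
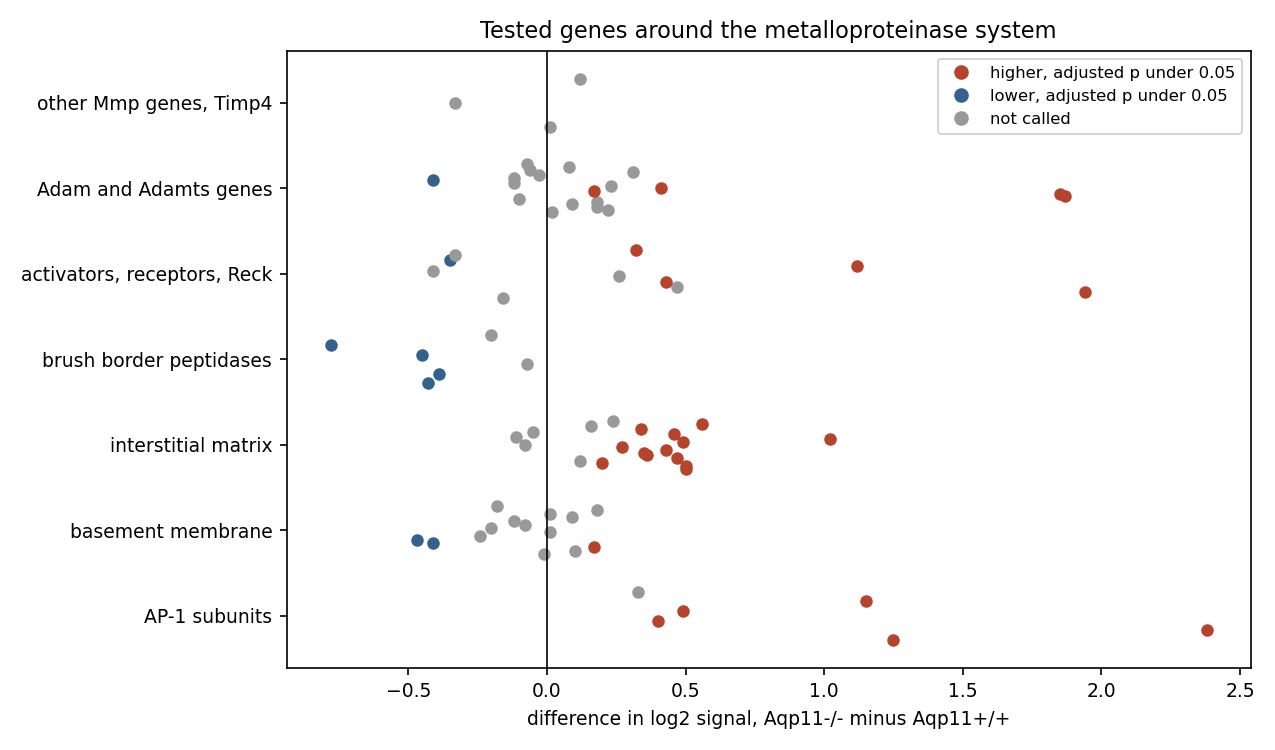
Difference in log2 signal between Aqp11-/- (n = 9) and Aqp11+/+ (n = 7) kidneys of each tested gene in 7 lists around the metalloproteinase system, by its brightest probe set. Vertical scatter within a list only separates points. AP-1 subunits and interstitial matrix lie mostly right of 0, brush border peptidases left of it, and basement membrane genes around it.

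Matrix genes were counted in 2 lists. Of 19 tested interstitial collagens, elastic fibre and matrix glycoprotein genes 13 were higher and 0 lower in knockout (median difference 0.35). Fbln1 rose by 1.02 (limma adjusted p = 7.2e-08), Tnc by 0.56, Bgn by 0.50 and Fn1 by 0.46. Their mean log2 signal was 10.74 to 11.06 in knockout and 10.42 to 10.76 in wild type, so the groups overlapped slightly. With the deposited scaling left as it is, 2 of the 19 were called. Of 14 basement membrane genes, 1 rose, 2 fell and 11 did not pass, with a median of -0.04. Col4a2 rose by 0.17, while Col4a3 and Col4a4, chains of the mature glomerular basement membrane, fell by 0.41 and 0.47.

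Markers of several other cell types also differed between the genotypes. All 18 macrophage genes listed were higher in knockout, with a median difference of 1.55, and Itgam on 1 wild-type array was the only reading at the floor. Their summed signal was 6357 to 11387 in knockout and 2363 to 4686 in wild type, without overlap. C1qa rose by 1.73, C1qc by 1.81, C1qb by 1.69 and Cd14 by 1.59. More cells of a type and more RNA per cell cannot be told apart in whole kidney. Wild-type arrays 2-1 and 2-2, at a mean log2 macrophage signal of 7.40, read 2.97 and 2.78 for Mmp12, at or beside the floor. Among knockout arrays, 1-2 had a macrophage signal of 8.67 and read 8.74 for Mmp12, 5-2 had 8.33 and read 7.10, 2-3 had 8.18 and read 5.30, and 3-4 had 7.9 and read 5.66. Without those 2 wild-type arrays the Mmp12 difference was 3.64. Of 12 fibroblast and mural genes 6 were higher (median 0.27), among them Tagln by 0.72, Thy1 by 0.57, Vim by 0.36 and Acta2 by 0.27. Their summed signal was 18458 to 22217 in knockout and 14514 to 17050 in wild type.

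Of 9 neutrophil genes on the array 4 were tested and 3 rose (Lcn2, S100a8 and S100a9, by 2.18, 1.28 and 0.75), and the summed signal of the 9 was 1079 to 2066 in knockout and 367 to 596 in wild type. Lcn2 was the brightest of them, at a mean log2 of 9.88 in knockout and 7.70 in wild type, and the mean log2 signal over the 9, 4.94 to 5.43 in knockout and 4.34 to 5.08 in wild type, overlapped. Lcn2 is also made by injured tubule. The granule genes Mpo and Elane, at means of 3.50 and 3.13 in knockout and 3.02 and 3.25 in wild type, were too dim to test. None of 3 tested lymphocyte genes passed. Of 8 endothelial genes 4 were lower, and of 10 proximal tubule genes 9 were lower, with a median of -0.72. The part of each cell type in the member differences was not tested.

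Differences between pups of one genotype were also compared, as deviations from the genotype mean over the 16 arrays. Over 35 relations, 14 between a member and a marker list and 21 between members, 6 had a permutation p of r under 0.05 after Benjamini-Hochberg adjustment. Mmp14 followed the fibroblast and mural list (Pearson's r = 0.87, permutation p = 3e-05, adjusted 0.000525; Spearman's rho = 0.79, permutation p = 0.00044, adjusted 0.0101). Without the 2 arrays farthest from the median of Mmp14 r was 0.74, and it was 0.89 among the 8 brighter and 0.94 among the 8 dimmer arrays. Timp1 followed the same list (r = 0.68, permutation p = 0.00759, adjusted 0.0443; rho = 0.69, permutation p = 0.00576, adjusted 0.0336). Without the 2 farthest arrays its r was 0.78. It was 0.94 among the brighter arrays and -0.07 among the dimmer ones, so this relation did not hold in both brightness groups.

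Over all 16 arrays the relation of Mmp12 with the macrophage list did not pass (r = 0.33, permutation p = 0.0768, adjusted 0.269; rho = 0.24, permutation p = 0.281, adjusted 0.446). Its r was 0.11 without the 2 farthest arrays, and it was 0.39 among the brighter and 0.84 among the dimmer arrays. These values are limited by the 4 wild-type arrays at the floor, where differences between arrays are lost. Among the 9 knockout arrays alone, a choice made after seeing the data, r was 0.80 (exact permutation p = 0.0175) and rho 0.47 (exact permutation p = 0.213), both two-sided and each a single relation. That r was 0.42 without array 1-2 and 0.19 without arrays 1-2 and 3-4, so it rests on those arrays. It was 0.80 among the 4 brighter knockout arrays, which include 1-2, and 0.85 among the 5 dimmer ones, which include 3-4. Both sets are small.

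Mmp2 and Timp2 varied together (r = 0.87, permutation p = 3e-05, adjusted 0.000525; rho = 0.75, permutation p = 0.0013, adjusted 0.0152; 0.82 without the 2 farthest arrays, 0.81 among the brighter and 0.95 among the dimmer). Timp3 followed Timp2 (r = 0.73, permutation p = 0.00185, adjusted 0.0216; rho = 0.69, permutation p = 0.00402, adjusted 0.0281), Mmp2 (r = 0.72, permutation p = 0.00298, adjusted 0.0261; rho = 0.80, permutation p = 0.00058, adjusted 0.0101) and Mmp23 (r = 0.66, permutation p = 0.00721, adjusted 0.0443; rho = 0.69, permutation p = 0.00351, adjusted 0.0281). Without the 2 farthest arrays these r were 0.60, 0.73 and 0.57. Among brighter and dimmer arrays they were 0.80 and 0.70, 0.59 and 0.78, and 0.62 and 0.62.

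The 3′ to 5′ signal ratio of the Gapdh control probe sets, taken as 1 sign of RNA quality, moved with the same members. It was 0.706 to 0.908 in knockout and 0.739 to 0.884 in wild type, where array 5-1 was highest. Set against the 7 tested members after seeing the data, with adjustment over these 7, its r passed for 5. Those were Timp3 (r = 0.82, permutation p = 0.00023, adjusted 0.00161; rho = 0.81, permutation p = 0.00078, adjusted 0.00546), Mmp23 (r = 0.76, permutation p = 0.00073, adjusted 0.00255; rho = 0.72, permutation p = 0.00181, adjusted 0.00633) and Mmp2 (r = 0.74, permutation p = 0.00131, adjusted 0.00306; rho = 0.70, permutation p = 0.00424, adjusted 0.00989), besides Timp2 and Mmp14. Timp2 had r = 0.67 (permutation p = 0.00613, adjusted 0.0107; rho = 0.59, permutation p = 0.0178, adjusted 0.0249), while Mmp14 ran the other way (r = -0.56, permutation p = 0.0285, adjusted 0.0399; rho = -0.65, permutation p = 0.00989, adjusted 0.0173). Without the 2 arrays farthest in the ratio these r were 0.71, 0.61, 0.72, 0.58 and -0.58. In the order Timp3, Mmp23, Mmp2, Timp2 and Mmp14 they were 0.64, 0.44, 0.42, 0.48 and -0.22 among brighter arrays and 0.93, 0.84, 0.73, 0.75 and -0.66 among dimmer ones. Mmp12 and Timp1 had r of 0.15 (permutation p = 0.657, adjusted 0.767) and -0.03 (permutation p = 0.905, adjusted 0.905), with rho of 0.31 and -0.15 (permutation p = 0.297 and 0.574). The same ratio of the actin control probe sets was 1.13 to 1.25 in knockout and 1.16 to 1.25 in wild type. It was not set against the members. Knockout array 2-4, with the highest Gapdh ratio, had an actin ratio of 1.18, and 2-3, with the lowest, had 1.23. The Gapdh ratio alone therefore does not settle which arrays had poorer RNA. The part of RNA quality in the relations between members was not tested.

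**Figure D4:**
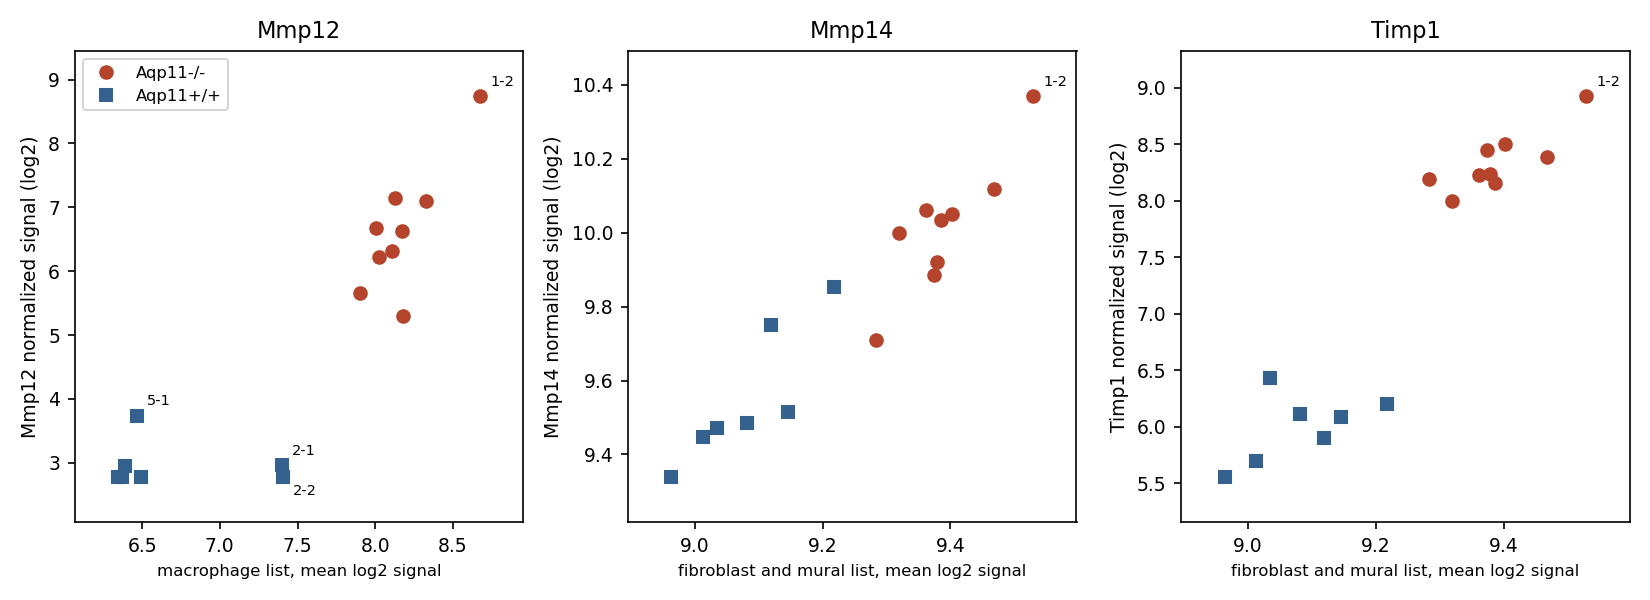
Normalized log2 signal of Mmp12, Mmp14 and Timp1 on each array against the mean log2 signal of a marker list, Aqp11-/- as red circles (n = 9) and Aqp11+/+ as blue squares (n = 7). Numbers name arrays mentioned in the text. Wild-type arrays 2-1 and 2-2 lie right of the other wild-type arrays on the macrophage axis, with Mmp12 at or beside the floor like most of that group, and Mmp14 rises along the fibroblast and mural axis within both genotypes.

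By the same deviations, over 16 arrays and all tested genes, the genes most like Mmp12 were Scg5 (correlation 0.86), Lgals3bp (0.83) and 1700016C15Rik (0.82). Those most like Mmp14 were Ccn2 (0.88), Arhgap17 (0.88) and Esf1 (0.87). Those most like Timp1 were Col7a1 (0.86), R3hdm2 (0.85) and Tlr4 (0.83). For Mmp2 they were Sod3 (0.96), Cst3 (0.95) and Ctsa (0.92), and for Timp2 H6pd (0.92), Lipa (0.90) and Mmp2 itself (0.87). For Mmp23 they were Mrpl57 (0.91), Bop1 (0.90) and Nepro (0.90), and for Timp3 Rab25 (0.91), Wtip (0.90) and Fam234a (0.90). The top genes of these 7 members were thus different genes, except that Timp2 had Mmp2 among its 3. These are the highest correlations among all tested genes, over arrays that differ in brightness and in the Gapdh ratio, given as a description.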

How the data were processed

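Kidney RNA of 9 Aqp11-/- and 7 Aqp11+/+ pups was hybridised to Affymetrix whole-genome mouse arrays, 1 pup each. The authors deposited signal intensity on a linear scale, obtained from GCOS 1.3 according to the submitters' processing notes. No source used here gives whether arrays were scaled to each other, and their trimmed means differed 2.12-fold. Intensities were quantile normalized, raised to a floor at the 20th percentile (6.88), and log2 was taken. Control probe sets (64 of 45101) were left out. The floor makes changes of dim genes look smaller, and quantile normalization hides a change in total mRNA.

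The platform annotation named 1 gene for 34945 probe sets, several for 932 and none for 9160. Identifiers of 34741 probe sets matched RefSeq GRCm38.p6, which gave current symbols, gene order and promoter windows. No source used here gives the genome build of the array design.

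The genotypes were compared in limma 3.58.1 (R 4.3.3, lmFit, eBayes with variance trend) and Benjamini-Hochberg adjustment over 27399 probe sets at 0.05. The number of arrays limits the precision. Members and lists were chosen with earlier results of these data known. Named genes are all members, up to 4 called genes of smallest p per list, and 3 correlated genes per member. Adam17, Adamts1, Reck, Jun, Furin, Mmp13, Mmp19, Mpo and Elane were named after their values were seen. In simulated data of 27399 probe sets, 62, 69 and 69 were changed by log2 0.5, 1 and 2. The fit recovered 54.8%, 91.3% and 100% of them, with 12 false among 178 calls. Noise was drawn independently for each value, and a smaller share was changed than the 11.7% called in the data, so recovery in the data may differ. Alternatives were other normalizations, floors, filters, covariates and variance models, each sex, brighter or dimmer arrays alone, and each array left out. Mmp12 in knockout arrays alone and the Gapdh ratio were added after seeing the data.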

Additional observations from a re-analysis of the deposited data

Results flagged for a closer look

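Of 46 groups of arrays (each of 23 member probe sets in each genotype), 8 held an array far from the others. Of the 35 groups with no value at the floor, 3 did, where chance gives about 1 in 20. The other 5 were among 11 groups with values at the floor, to which that rate does not apply. Mmp9 1448291_at read 4.42 on knockout array 5-2, against at most 3.36 on the other knockout arrays, and 4.01 on wild-type array 1-1, against at most 3.13 on the other wild-type arrays. Mmp12 read 3.74 on wild-type array 5-1, where the next was 2.97. Mmp23 1417282_at read 7.97 on the same array, where the next was 7.57. Timp2 1420924_at read 8.75 on knockout array 1-2, where the next was 8.49. Timp2 1450040_at read 7.80 on knockout array 3-4, where the next lowest was 8.15. Timp2 1437081_at read 3.09 on knockout array 4-3 and 3.70 on wild-type array 2-1, where the next values were 2.78 and 2.79, at or beside the floor.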

How the results depend on the processing

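Mmp12 and Timp1 passed the test in every alternative run, with differences of 2.50 to 4.59 and 2.09 to 2.52. A filter at the 50th percentile on all arrays left Mmp12 out and gave it no value. The probe sets of Mmp14, 1417281_a_at of Mmp23 and 1460287_at of Timp2 passed in 30 of 33. With the deposited scaling their differences were 0.48 to 0.56, 0.44 and 0.34, close to the values reported, but the SE grew to 0.19 to 0.21, 0.18 and 0.17 and each lost its call. Each also lost it in females alone, Mmp14 also in the dimmer and the others in the brighter arrays alone. Timp3 1419089_at passed in 16 of 33. With the brightness group as a block 11 member probe sets passed, 7 higher and 4 lower, and the 4 were those of Timp3. Over all member probe sets, 535 results kept sign and side of the threshold, 32 lost and 22 gained a call. Timp2 1450040_at, which passed nowhere, turned to -0.12 in males, -0.03 in dimmer arrays and -0.10 without wild-type arrays 2-1 and 2-2, and ran from -0.06 (without 2-1) to 0.18 with single arrays left out. The cause was not tested. Where 8 member probe sets were called, the number was 2 with the deposited scaling, 2 in females and 4 in dimmer arrays. Where 4 member genes were called, it was 2 with the deposited scaling and 2 in females. That count was 6 with the first number of the labels as a block and 6 with the probe sets of a gene averaged. It was 5 with the brightness group as a block and 5 with array weights. All probe sets called higher (1697) numbered 375 with the deposited scaling, 1071 in males, 440 in females, 883 in brighter and 879 in dimmer arrays, and those called lower (1495) 198, 771, 324, 851 and 584. With the deposited scaling 65.4% of calls were higher, against 53.2%. Genes called in the other lists (75) numbered 35 with the deposited scaling and 33 in females. With the deposited scaling 2 Adam and Adamts genes, 2 regulators, 3 AP-1 genes and 1 fibroblast or mural gene were called higher, and 1 brush border gene lower. In the dimmer arrays alone the counts higher were 2, 3, 3 and 3. Alternatives on part of the arrays have fewer samples. With the first number of the labels as a replicate block 13 member probe sets passed, against 8. Those gained were Mmp23 1417282_at, Timp2 1420924_at, 1433662_s_at and 1454677_at, and Timp3 1449335_at. With this block 2029 of all probe sets were called higher, against 1697, and 1887 lower, against 1495. The first number takes 5 values, each with pups of both genotypes, and the pups came from 5 breeding pairs. It may therefore mark the litter, although the labels do not give its meaning. Deviations of same-numbered knockout and wild-type arrays correlated at -0.0644 to 0.287, and knockout arrays correlated best with their own number for 2 of 5 numbers. Pairing by this number was not taken up, so any litter effect is not removed from the main results. Signals near the floor limit what can be said of Mmp3, Mmp7 and Mmp9.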
